A study of Mus musculus with 3 samples.

Results

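Mitochondrial ribosomal protein genes were examined in untreated melan-a cells, an immortalized line of mouse melanocytes. Members were all protein-coding genes whose mouse symbol begins with Mrpl or Mrps followed by a number, which gave 77 of the 22698 genes with a deposited value. Of these, 47 carry an Mrpl symbol and 30 an Mrps symbol. The rule used names only, and no expression value.

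The mitochondrial ribosome sits inside the mitochondrion and translates the few messenger RNAs of mitochondrial DNA, which encode core subunits of the respiratory chain and ATP synthase. All of its proteins are encoded in the nucleus, made on cytosolic ribosomes and imported. Its small subunit (Mrps) binds and decodes the messenger RNA, and its large subunit (Mrpl) forms the peptide bond and guides the new chain out through a tunnel. Some of its proteins have a counterpart in the bacterial ribosome, and the others are found only in mitochondria.

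The series held 1 condition. Messenger RNA of melan-a cells was sequenced in 3 biological replicates, labelled 1, 3 and 4, with each sequenced on 3 lanes. Whether they came from separate cultures was not given in the sources used here, so the SDs measure the spread between these samples, which may be technical. The cells had the strain background C57BL/6J, were labelled as melanocytes from Ink4a-ARF-/- mice, and were grown with fetal bovine serum, the phorbol ester TPA and cholera toxin and no further treatment. There was therefore no group comparison and no test, all replicates shared this genotype and these additives, and the single line limits what the values represent.

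The deposited values are FPKM, fragments per kilobase of gene relative to library size, scaled between libraries and rounded to 2 decimals. Library sizes on that scale, recovered from the step that 1 read makes in short genes, came to 53900000, 47000000 and 66300000 reads for replicates 1, 3 and 4. On a gene of 1 kb, 3 reads then correspond to 0.0557, 0.0638 and 0.0452 FPKM. Of 9 melanocyte markers, 8 were at 1 FPKM or more in every replicate, with a summed level of 5779 to 6618 FPKM, and the exception, Kit, had a mean of 0.680 FPKM. Markers of keratinocytes summed to at most 0.700 FPKM, of fibroblasts to at most 0.110 and of endothelial cells to at most 0.0300, and none of these genes reached 1 FPKM. Of 3 leukocyte markers, which summed to 13.2 to 15 FPKM, Ptprc was at 0 in every replicate. Cd68 had a mean of 1.19 FPKM and Lyz2, the lysozyme gene, a mean of 12.9 FPKM. The part of this RNA in the member levels was not tested. Cdkn2a, the gene named in the label of the mice, had 19.2, 16.5 and 24.3 FPKM, a gene-level value that includes whatever exons a deletion leaves and so does not check the label.

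Nearly all members were expressed, most of them at moderate levels. The median member had 19.3, 21.2 and 19.9 FPKM in replicates 1, 3 and 4 (20.1 ± 1.0, SD of the 3 replicate medians, n = 3). Of the 77 members, 76 had a mean of at least 1 FPKM, and 59 (76.6%) had 10 FPKM or more in every replicate. Among all 22309 protein-coding genes with a known position, 22.1% did so. The 10231 protein-coding genes with a mean of at least 1 FPKM, called expressed genes here, had a median of 10.8 FPKM, and 58 members lay above it.

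Members filled the middle and upper part of the expressed range rather than its top. By percentile among expressed genes, 29 members fell between the median and the 75th percentile, 24 between the 75th and 90th, and 5 above the 90th. Below the median were 13 members between the 25th percentile and the median, 5 below the 25th percentile and 1 under 1 FPKM. Mean levels of the members had quartiles at 11 and 35.6 FPKM, a ratio of 3.24. The same ratio was 5.92 over the expressed genes. A range narrower than that of expressed genes was not particular to the members. Among the gene lists compared below, the ratio was 2.36 for mitochondrial ribosomal proteins with other symbols and 3.05 for assembly factors. It was 3.11 for translation factors and 3.17 for mitochondrial tRNA synthetases. It was higher than in the members for nuclear oxidative phosphorylation genes and for cytosolic ribosomal protein genes.

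**Figure D1:**
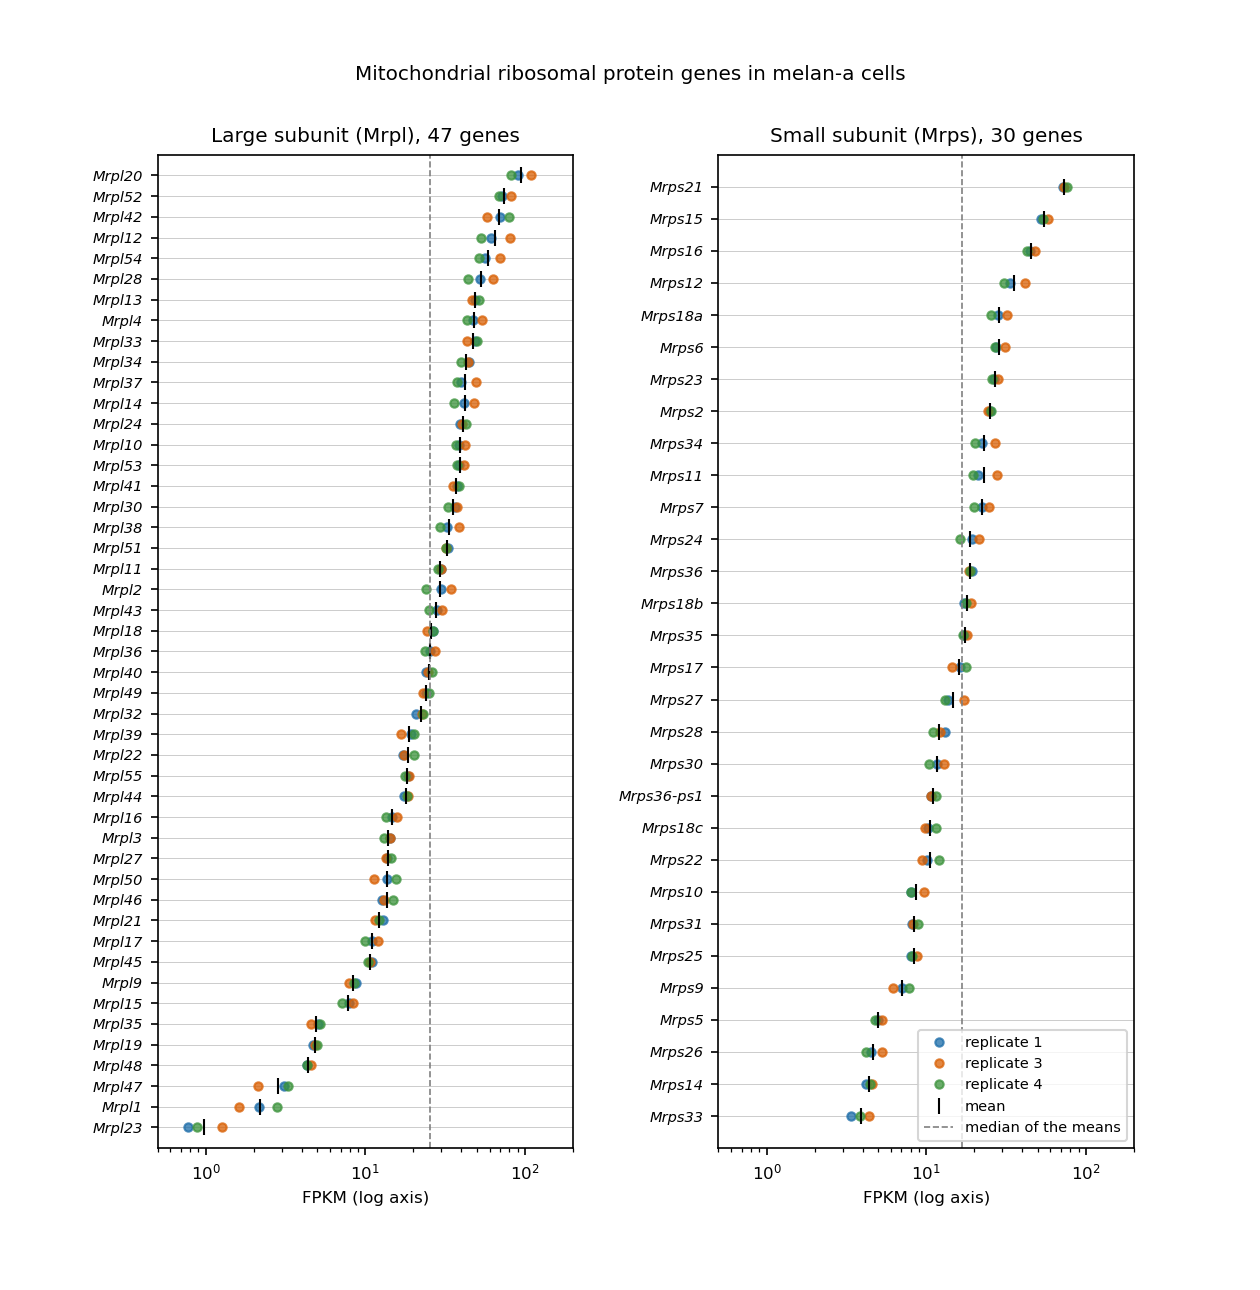
FPKM of each of the 47 large subunit genes (left) and 30 small subunit genes (right) in replicates 1, 3 and 4, on a log axis, ordered by mean; bars mark the mean of 3 replicates and dashed lines the median of the gene means. The medians are 25.5 FPKM on the left and 16.7 on the right. The points of 1 gene lie close together beside the whole range of the genes, though those of neighbouring genes often overlap.

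Mrpl20, a homologue of a bacterial protein that binds ribosomal RNA early in assembly, was the highest member, with 90.9, 109 and 81.88 FPKM in replicates 1, 3 and 4. It lies on chromosome 4 (mm9, chr4:155177645-155183885, + strand). It was the highest member in each replicate, though its value in replicate 4 (81.88 FPKM) was about that of Mrpl52 in replicate 3 (81.98). Mrpl52, found only in mitochondrial ribosomes, had 72.3, 81.98 and 69.0 FPKM. Mrpl42, also specific to mitochondria, had 69.7, 58.2 and 79.8 FPKM. These 2 genes overlapped each other across replicates, so their order was not resolved.

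Mrpl12, which forms the flexible stalk that recruits translation factors, had 61.6, 80.3 and 53.4 FPKM. Mrpl54, another mitochondrion-specific protein of the large subunit, had 56.4, 69.4 and 51.4 FPKM. Both were highest in replicate 3 and lowest in replicate 4, as was Mrpl20, while Mrpl42 had the opposite order.

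Among small subunit genes, Mrps21, a homologue of a bacterial protein near the site of messenger RNA binding, led with 71.6, 72.5 and 76.1 FPKM. Mrps15 had 52.5, 57.5 and 54.0 FPKM, and Mrps16, a gene mutated in a human mitochondrial translation disorder, had 44.95, 48.1 and 42.5. The ranges of these 3 genes did not overlap. Mrps12, which lies at the decoding site, followed with 33.3, 41.6 and 30.9 FPKM and Mrps18a with 28.3, 32.2 and 25.4, ranges that met at their edges.

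At the other end, Mrpl23 was the only member with a mean below 1 FPKM, at 0.780, 1.26 and 0.890 FPKM. Its protein is the homologue of a bacterial protein at the exit of the peptide tunnel. Of the 50-base stretches of its coding transcripts, 76.4% occur elsewhere in the mm9 genome, so reads from Mrpl23 can fit more than 1 place. The search covered 643 stretches, against 1777 bases of joined exons. How reads with several places were treated was not tested. Its level is therefore uncertain. Mrpl20 was 96.1 times as high as Mrpl23 and 42.8 times as high as Mrpl1, the second lowest.

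Mrpl1, the protein of a mobile stalk beside the exit site for transfer RNA, had 2.16, 1.61 and 2.81 FPKM, and only 1.08% of its 50-base stretches had another copy. Mrpl47 had 3.11, 2.13 and 3.27 FPKM, Mrpl48 had 4.30, 4.57 and 4.32, and Mrpl19 had 4.73, 4.86 and 5.01. Mrpl1 and Mrpl47 shared their order over the replicates, with replicate 3 lowest, whereas Mrpl48 and Mrpl19 hardly moved. In the small subunit the lowest were Mrps33 with 3.39, 4.41 and 3.86 FPKM, Mrps14 with 4.18, 4.58 and 4.47, and Mrps26 with 4.48, 5.25 and 4.18. These 3 genes overlapped, and Mrps33 had 46.8% of its 50-base stretches repeated in the genome. Mrps5 had 4.98, 5.26 and 4.76 FPKM, and Mrps9 had 7.08, 6.18 and 7.76 FPKM, above all values of the other 4.

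The order of members was nearly the same in each replicate. Spearman's rho across the 77 genes was 0.978 between replicates 3 and 4, 0.992 between 3 and 1, and 0.991 between 1 and 4; genes are not independent replicates, and the libraries share 1 annotation and 1 scaling. Of the highest 10 members, 8 were among the highest 10 in every replicate, and of the lowest 10, all 10 were. Immediate neighbours in the order could seldom be told apart, since of 76 neighbouring pairs only 5 had values that did not overlap.

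The level of a gene in FPKM depends on the gene length by which reads are divided. The deposited values fitted whole reads best when the joined exons of all annotated transcripts were taken as the length (mean distance from a whole read 0.0457, against 0.109 for the longest transcript and 0.156 for the mean transcript, over 9 values). A gene with 1 long annotated transcript is then given a lower FPKM than its short transcripts alone would give. Joined exons were more than 2 times the median coding transcript in 18 members and within 5% of it in 21.

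Dividing by the median coding transcript length moved some members far. Mrpl13, whose joined exons span 7936 bases and whose median coding transcript has 708, went from 49.0 to 549 FPKM and from rank 9 to rank 1. Mrpl33 went from 47.4 to 267 FPKM and Mrps10 from 8.57 to 68.0, from rank 62 to rank 16. Mrpl52 stayed at 74.4 FPKM. The ranks of the 77 members under the 2 lengths had a Spearman's rho of 0.87, with 6 of the highest 10 and 8 of the lowest 10 shared, and Mrpl23, Mrpl1 and Mrpl47 remained the lowest 3 in the same order. Which length is nearer to the transcripts present in melan-a cells was not tested.

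**Figure D2:**
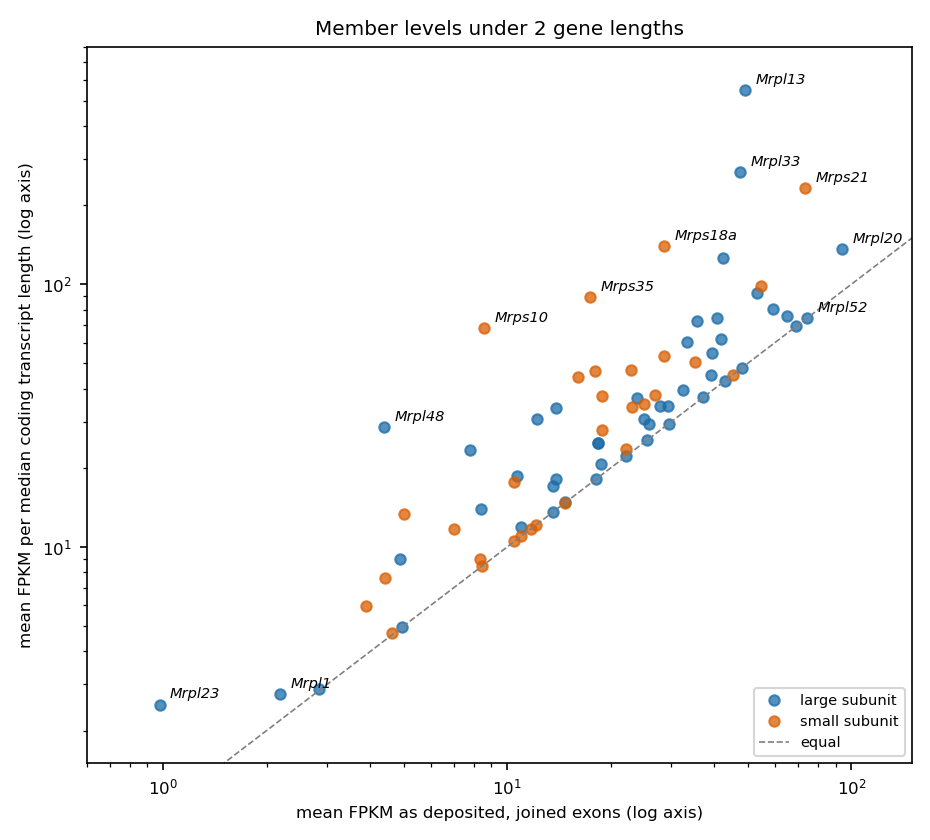
Mean FPKM of each member as deposited, per joined exons (horizontal), and rescaled to the median length of its coding transcripts (vertical), both on log axes, with large subunit genes in blue and small subunit genes in orange. Points on the dashed line do not move; Mrpl13 (49.0 to 549 FPKM) and Mrps10 (8.57 to 68.0 FPKM) are among those farthest above it.

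As deposited, genes of the small subunit were lower than genes of the large subunit. The median small subunit gene had 16.7, 17.6 and 16.6 FPKM in replicates 1, 3 and 4, and the median large subunit gene had 25.6, 24.8 and 24.9. Their ratio was 0.654, 0.708 and 0.666 (0.676 ± 0.0288, SD, n = 3), above 1 in 0 of 3 replicates. With the median coding transcript as the length, the ratio became 0.943, 1.06 and 0.875, with a mean of 0.961, so the difference depended on the gene length. Joined exons were 1.51 times the median coding transcript in the median small subunit gene and 1.25 times in the median large subunit gene.

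Symbols do not always tell where a protein sits. Mrps18a and Mrps30 encode proteins that lie in the large subunit, and Mrps36 is now counted as a subunit of the 2-oxoglutarate dehydrogenase complex. Placing the genes by protein, with Mrps36 and the gene named Mrps36-ps1 left out, gave the same ratio of 0.676. Mrps36 had 19.3, 18.5 and 18.7 FPKM and Mrps36-ps1, annotated as protein-coding despite a name of the kind used for pseudogenes, had 10.8, 10.7 and 11.5. Of their 50-base stretches, 80.0% and 72.6% are found elsewhere in the genome, so the levels of both genes are uncertain. Whether the 2 genes share these stretches with each other was not tested.

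The 3 genes of the Mrps18 family encode related proteins, of which Mrps18c was listed here with the bacterial counterpart and Mrps18a and Mrps18b as specific to mitochondria. They differed in level. Mrps18a had 28.3, 32.2 and 25.4 FPKM, Mrps18b had 17.3, 18.99 and 17.7, and Mrps18c had 10.2, 9.76 and 11.5. No value of one gene overlapped those of another. Mrps18b has 51.8% of its 50-base stretches repeated elsewhere, Mrps18c 20.5% and Mrps18a 0.

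Members with a bacterial counterpart (46 genes) and members specific to mitochondria (29 genes) had similar medians, 21.5 ± 1.76 and 19.5 ± 0.563 FPKM (SD of replicate medians, n = 3). The ratio of the second to the first was 0.920, 0.809 and 1.0. It was 1.05 with geometric means and 1.08 with the other gene length, so no direction held. Among genes with an Mrpl symbol the mitochondrion-specific ones had the higher median, 28.2 ± 2.14 against 23.3 ± 0.168 FPKM. Among genes with an Mrps symbol they had the lower one, 13.4 ± 1.38 against 20.5 ± 2.08 FPKM. The latter include Mrps18a and Mrps30, whose proteins lie in the large subunit. Neither contrast was repeated with genes placed by protein or with the other gene length.

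By role, the 3 stalk proteins were well expressed, with means of 39.3 FPKM for Mrpl10, which anchors the stalk, 29.5 for Mrpl11 at its base and 65.1 for Mrpl12. Genes of the decoding site and the messenger RNA channel spread from 5.0 FPKM for Mrps5 to 35.2 for Mrps12, with Mrps24 at 18.9 and Mrps2 at 24.9 between them. The 8 genes of the peptide tunnel and peptidyl transferase region ran from Mrpl23 at 0.977 FPKM to Mrpl4 at 48.2. Genes of 1 structural region thus did not share 1 level.

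In the central protuberance, the crest that faces the small subunit, Mrpl38 had a mean of 33.4 FPKM, Mrpl18 25.8, Mrpl40 24.9, Mrpl46 13.6 and Mrpl48 4.40. Mrpl48, with joined exons 6.48 times its median coding transcript, had 28.5 FPKM on that other length, above Mrpl46 with 17.0. Mrpl45, which ties the ribosome to the inner mitochondrial membrane where the new proteins are inserted, had 11.01, 10.7 and 10.3 FPKM. The 10 members listed as mutated in human disorders of mitochondrial translation ran from 4.41 FPKM for Mrps14 to 65.1 for Mrpl12, and all were above 1 FPKM in every replicate.

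Genes of the machinery around the mitochondrial ribosome were mostly lower than the members. Of these, 7 further ribosomal proteins with other symbols had a median of 13.6 FPKM, from Dap3, a GTP-binding protein of the small subunit, at 7.49 to Aurkaip1 at 55.9. The 18 assembly factors found had a median of 4.67 FPKM, from the methyltransferase gene Nsun4 at 0.850 to Oxa1l, the insertase of the inner membrane, at 29.1. The 13 translation factors had a median of 4.47 FPKM, from the release factor gene Mtrf1l at 1.64 to the elongation factor gene Gfm1 at 17.0. The 17 mitochondrial tRNA synthetases had a median of 4.51 FPKM, from Nars2 at 1.11 to Iars2 at 12.4, and 0 of them reached the median member.

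Within each replicate the member median was 4.14, 4.68 and 4.6 times that of the tRNA synthetases in replicates 1, 3 and 4. It was 4.43, 4.78 and 3.80 times that of the assembly factors and 4.62, 4.99 and 4.0 times that of the translation factors. The direction was the same in 3 of 3 replicates for each list. Genes of these lists have longer joined exons, with medians of 3444 to 3881 bases against 1693 in the members.

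Genes of the respiratory chain and of the cytosolic ribosome were higher than the members as lists. The 84 nuclear genes of oxidative phosphorylation had a median of 66.2 FPKM, 3.45, 3.29 and 3.38 times the member median in replicates 1, 3 and 4, and 28 of them exceeded the highest member. The 80 cytosolic ribosomal protein genes had a median of 46.5 FPKM, 2.45, 2.18 and 2.32 times the member median, and 30 of them exceeded the highest member. These genes spread much more widely than the members, with a quartile ratio of 20. Their copies do too: the median cytosolic gene had 46.9% of its 50-base stretches elsewhere in the genome and the median member 0.376%, and the part of these copies in the low values was not tested.

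Against the expressed genes, the member median was 1.79, 2.0 and 1.85 times as high (1.88 ± 0.111, SD, n = 3). With the median coding transcript as the length this was 1.77, and the ratio to cytosolic ribosomal proteins went from 0.433 to 0.220.

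**Figure D3:**
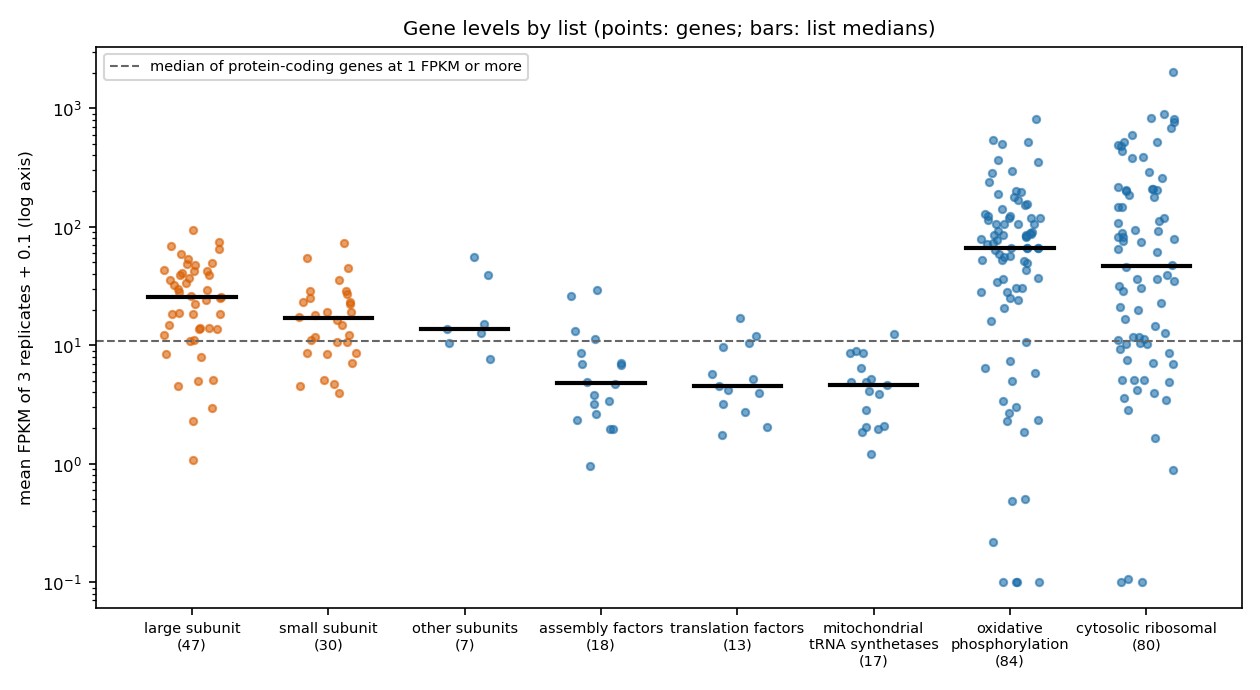
Mean FPKM of 3 replicates plus 0.1, on a log axis, for the large and small subunit genes (orange) and for 6 other gene lists (blue); each point is a gene, bars are list medians and numbers in brackets are genes. The dashed line is the median of expressed genes (10.8 FPKM), which both subunit medians exceed and the medians of assembly factors, translation factors and tRNA synthetases do not reach.

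Transcription of nuclear genes for mitochondrial proteins is known to be driven in many tissues by NRF1, the ETS-family factor GABP, YY1 and coactivators of the PGC-1 family. In melan-a cells Nrf1 had 5.6, 5.95 and 5.55 FPKM, Gabpa had 9.80, 7.42 and 12.2, and Yy1 had 14.3, 13.7 and 12.5. Of the coactivator genes, Ppargc1a had 0.530, 0.410 and 0.770 FPKM, Ppargc1b had a mean of 1.73 and Pprc1 of 12.5. Ppargc1a was thus the lowest of the 9 regulators listed, and Myc, with a mean of 26.5 FPKM, the highest. For mitochondrial transcription itself, Polrmt, the RNA polymerase, had a mean of 10.3 FPKM and Tfam, which packs and activates mitochondrial DNA, 3.54.

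Promoter sequences of the members were read from RefSeq (GRCm38.p6, 250 bases before to 50 after the start). They were found for 67 of the 77 members, with 73 windows of 300 bases. The 4 below are shown because 3 of them serve members with a neighbour on the other strand, and because among them they hold the 3 motifs, of 6 searched, that were more frequent in members than in promoters of expressed genes. They run 5′ to 3′ on the strand of the named gene, and capitals mark a match to a core of NRF1 (CGCATGCG), ETS factors (CCGGAAG) or YY1 (AAGATGG) on either strand. Mrps11 is at chr7:78782881-78783180 (+ strand), Mrps18b at chr17:35916391-35916690 (- strand), Mrpl18 at chr17:12916042-12916341 (- strand) and Mrpl42 at chr10:95501900-95502199 (- strand).
Mrps11: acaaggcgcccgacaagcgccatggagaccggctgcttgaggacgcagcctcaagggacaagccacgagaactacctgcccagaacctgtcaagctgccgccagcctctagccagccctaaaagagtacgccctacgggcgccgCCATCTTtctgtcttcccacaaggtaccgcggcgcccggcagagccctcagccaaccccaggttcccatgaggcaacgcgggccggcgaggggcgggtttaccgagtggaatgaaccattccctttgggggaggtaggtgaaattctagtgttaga
Mrps18b: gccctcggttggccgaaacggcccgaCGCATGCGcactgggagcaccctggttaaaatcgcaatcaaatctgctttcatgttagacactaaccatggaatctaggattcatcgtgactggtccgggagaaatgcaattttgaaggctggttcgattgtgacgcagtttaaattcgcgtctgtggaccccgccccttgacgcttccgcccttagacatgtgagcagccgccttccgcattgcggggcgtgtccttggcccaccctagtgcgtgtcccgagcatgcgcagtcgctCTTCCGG
Mrpl18: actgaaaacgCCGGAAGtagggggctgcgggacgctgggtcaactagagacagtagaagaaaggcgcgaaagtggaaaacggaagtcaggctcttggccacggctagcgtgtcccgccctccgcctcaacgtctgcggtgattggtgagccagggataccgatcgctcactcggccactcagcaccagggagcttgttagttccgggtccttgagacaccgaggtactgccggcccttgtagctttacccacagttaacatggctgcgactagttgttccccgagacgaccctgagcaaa
Mrpl42: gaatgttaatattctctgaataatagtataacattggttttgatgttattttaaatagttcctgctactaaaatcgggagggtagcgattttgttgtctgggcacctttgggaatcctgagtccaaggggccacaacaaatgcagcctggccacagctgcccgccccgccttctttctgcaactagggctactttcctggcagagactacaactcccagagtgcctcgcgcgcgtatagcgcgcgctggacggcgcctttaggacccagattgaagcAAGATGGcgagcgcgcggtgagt

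Counted from 1 at the 5′ end of each sequence, Mrps11 holds a YY1 core at bases 145 to 151, Mrps18b an NRF1 core at 27 to 34 and an ETS core at 294 to 300, Mrpl18 an ETS core at 11 to 17, and Mrpl42 a YY1 core at 278 to 284. Over all member windows, the ETS core was in 32.9% (24 of 73), against 8.86% of all 32851 mouse promoter windows and 18.9% of those of expressed genes. The NRF1 core was in 9.59% (7 of 73), against 1.87% and 4.30%. The YY1 core was in 17.8% (13 of 73), against 6.34% and 7.28%. All 3 shares were higher in the members than in either background, though no test was made and neighbouring genes can share a window.

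Other motifs did not show this. The TFAP2 core (GCCNNNGGC), the element of the factor that the study was about, was in 21.9% of member windows, against 16.6% of all windows and 26.1% of those of expressed genes. The E-box CACGTG, bound by MITF and MYC among others, was in 9.59%, against 7.15% and 10.5%. All these shares count windows and not genes, and some members have several windows. Overlapping windows of Mrpl2, for example, each hold the E-box. The GC box GGGCGG was in 52.1%, against 35.7% and 65.4%. For these 3 motifs the members lay between the background values. All motifs were searched on both strands, and the TFAP2 core can overlap a GC box. A match is a run of letters and not a measured binding site.

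Many members start close to a gene on the opposite strand. On mm9, 28 of the 77 members (36.4%) had the start of another protein-coding gene on the opposite strand within 1000 bases, and for 27 of these members the nearest such start lay within 300 bases. Since 1 pair held a member on each side, these were 27 distinct pairs, 26 of them within 300 bases. The share was 12.0% over all protein-coding genes and 19% over expressed genes. It was 16.2% for cytosolic ribosomal protein genes and 34.5% for genes of oxidative phosphorylation, the latter close to the share in the members. It was found for 40.4% of large and 30.0% of small subunit genes. Starts came from the annotation and were not measured here. In 5 of the 28 members, Mrpl13, Mrpl18, Mrpl44, Mrpl47 and Mrpl48, the nearest starts were placed so that the 2 genes overlap. In these, 4.16%, 10.1%, 8.85%, 17.7% and 11.5% of exon bases overlap a gene on the opposite strand.

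In 1 pair both genes were members: Mrps11 and Mrpl46 on chromosome 7 have annotated starts whose closest pair lies 53 bases apart, while the outermost starts overlap by 413 bases. Of the exon bases, 7.97% in Mrps11 and 12.4% in Mrpl46 overlap a gene on the opposite strand. Their GRCm38.p6 windows share 141 bases (chr7:78783040-78783180), the 3′ end of the sequence shown above for Mrps11. Mrps11, of the small subunit, had 21.2, 27.8 and 19.6 FPKM. Mrpl46, of the central protuberance, had 12.8, 13.1 and 14.9. Mrps11 was the higher in all 3 replicates, by 1.68 times in the mean, and the replicate in which Mrps11 was highest was not the one in which Mrpl46 was.

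Of the 28 neighbours, 25 were at 1 FPKM or more and 21 were lower than their member, with a median neighbour level of 6.82 FPKM. The pair of Mrps11 and Mrpl46 enters this count from both sides. Such a count was not made for neighbours of other genes, and the member median was itself above that of expressed genes. Whether the count is particular to the members was therefore not tested. Several neighbours have mitochondrial roles. Mrps12 (35.2 FPKM) faces Sars2, the mitochondrial seryl-tRNA synthetase gene (8.83 FPKM), and Mrpl43 (27.8 FPKM) faces Peo1, the helicase of mitochondrial DNA (4.04 FPKM). Mrpl47 (2.84 FPKM) faces Ndufb5, a subunit of complex I (27.8 FPKM). In this last pair the member was the lower, by a ratio of 0.102.

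Other neighbours act elsewhere in the cell. Mrpl18 (25.8 FPKM) faces Tcp1, a subunit of the cytosolic chaperonin, at 74.7 FPKM, and Mrpl32 (22.2 FPKM) faces the proteasome gene Psma2 at 32.3. Mrpl48 (4.40 FPKM) faces Rab6, a GTPase of Golgi traffic, at 50.4. Mrpl18, Mrpl32 and Mrpl48 were lower than their neighbours, with ratios of 0.345, 0.687 and 0.0873. With the median coding transcript as the length the ratios were 0.150, 0.687 and 0.472. Mrpl18 and Mrpl48, like Mrpl47, are among the members that overlap their neighbour at the start. Mrps21 (73.4 FPKM) faces C920021L13Rik at 0.137 FPKM, the widest gap in the other direction. With that length 21 of the 28 members were again the higher, but Mrpl14 with Tmem63b went from 1.07 to 0.296 and Mrps18b with Ppp1r10 from 0.911 to 1.80. Levels on the 2 sides ranged from far higher to far lower in the member.

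Members with such a neighbour had a median of 23.0 FPKM and the 49 without one a median of 18.4. In 22 members, exons overlap those of a gene on the opposite strand. The library kit keeps strand, but the strand setting used for counting was not given in the sources used here, so for these members reads of the 2 genes may not have been separated. In 6 members exons overlap a gene on the same strand, among them Mrpl53, with 87.1% of its exon bases shared. Without the 26 members that overlap any gene the median level was 18.7 FPKM, against 18.9 for all.

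**Figure D4:**
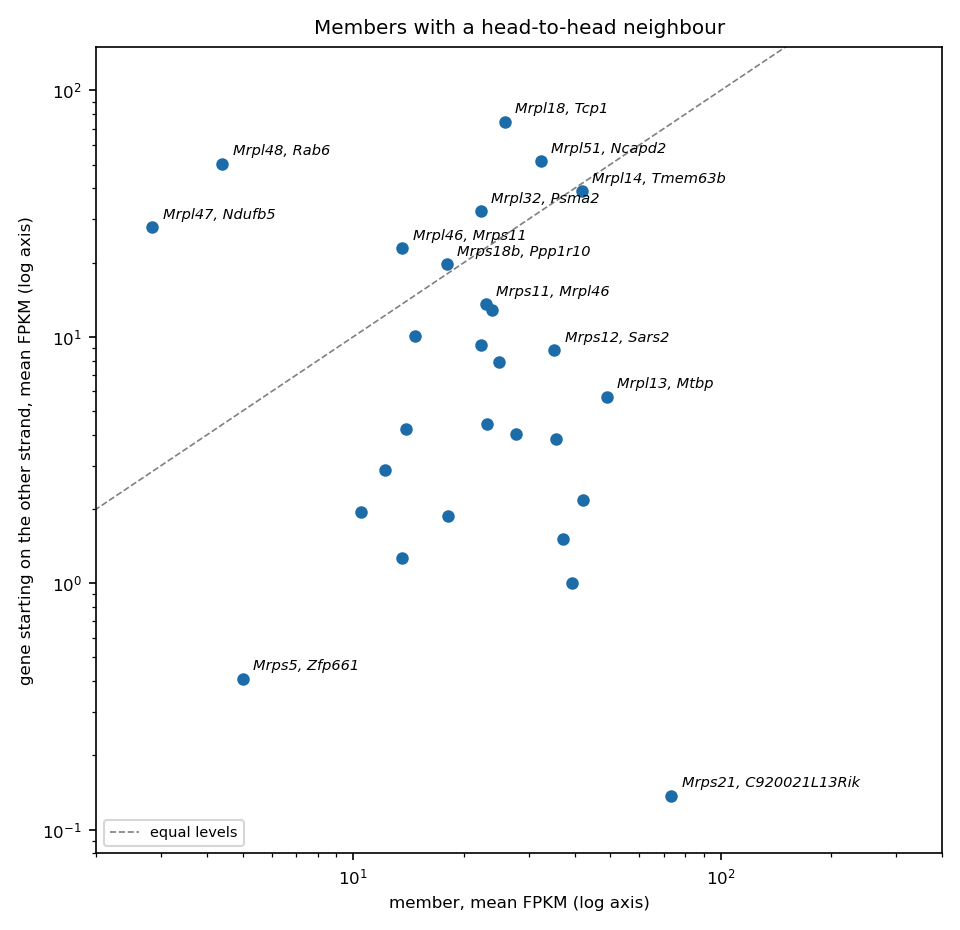
Mean FPKM of the 28 members with a protein-coding gene starting within 1000 bases on the opposite strand (horizontal) and of that gene (vertical), on log axes. The dashed line marks equal levels; 21 of the 28 points lie below it, and Mrpl47 with Ndufb5 and Mrpl48 with Rab6 lie farthest above it.

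Members varied less between replicates than expressed genes did as a whole, a comparison not matched for level or GC content. Over the 76 members with a mean of at least 1 FPKM, the median coefficient of variation (SD over mean, n = 3 each) was 7.61%, against 11.6% for expressed genes. It was under 10% in 50 members (65.8%), against 42.9% of expressed genes, and over 20% in 3 (3.95%), against 20.9%. The steadiest was Mrpl51, with 33.1, 31.99 and 32.2 FPKM (1.77%). Read counting alone would give the members a median of 2.34%. The members that varied more than counting were 73 of 76 (96.1%), near the 94.3% of expressed genes. The estimated number of reads per member ran from 75 to 27087, with a median of 1594 in the shallowest replicate.

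The most variable members were Mrpl1 (27.4%), Mrpl23 (25.7%), Mrpl47 (21.8%), Mrpl12 (21.2%), Mrps11 (19.1%) and Mrpl28 (17.9%). Mrpl28, a large subunit gene, had 52.2, 63.1 and 44.1 FPKM. Mrpl12, Mrps11 and Mrpl28 were highest in replicate 3 and lowest in replicate 4. Mrpl1 and Mrpl47 were lowest in replicate 3 and highest in replicate 4.

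Differences of 1.5-fold between replicates, on the scale of log2(FPKM + 0.1), were rare among the members. Between replicates 3 and 4, Mrpl12 was past 1.5-fold higher in replicate 3, which is 1 of 76 members (1.32%), against 6.13% of expressed genes. Mrpl47 and Mrpl1 were past 1.5-fold lower (2.63%), against 12.8%. In the other pairs 0 of 76 members passed, while of the expressed genes 0.0977% were higher and 2.23% lower in replicate 3 than in replicate 1, and 1.13% were higher and 2.73% lower in replicate 1 than in replicate 4. With 1 sample on each side these are sizes and not tests. The SD of the log2 differences between replicates 3 and 4 was 0.272 in members and 0.467 in expressed genes.

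What differed between replicates moved with base composition. Across the 76 members, the log2 difference between replicates 3 and 4 had a Spearman's rho of 0.67 with the GC content of the coding transcripts and -0.09 with joined exon length. Across the 10231 expressed genes the rho with GC was 0.77, so the relation was not particular to the members. All 17 members with a GC content of 55% or more were higher in replicate 3, with a median log2 difference of 0.39. Of the 8 members under 45%, 2 were higher, with a median of -0.06. Between 45% and 50%, 9 of 24 were higher, with a median of -0.08. From 50% to 55%, 18 of 27 were higher, with a median of 0.10. Such counts by GC band were not made for expressed genes. These are descriptions across genes that share libraries, and the origin of the GC relation was not tested.

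Setting the median of each of 20 GC bins equal between replicates brought the median coefficient of variation of the members from 7.61% to 6.44%. Mrpl12, Mrpl47 and Mrpl1 were then no longer past 1.5-fold between replicates 3 and 4, and Mrpl17 and Mrps33 were. The names of the few members past this fold thus changed with how GC was treated, but also with smaller shifts. Mrpl12, at a log2 difference of 0.59, also dropped out when replicates were only centred on the median of expressed genes, 0.01. For expressed genes, neither the coefficient of variation nor the share past this fold was computed after the GC-bin centring. GC content also went with level, with a Spearman's rho of 0.52 across the 77 members and 0.20 across expressed genes, and joined exon length with a rho of -0.42 and -0.18.

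**Figure D5:**
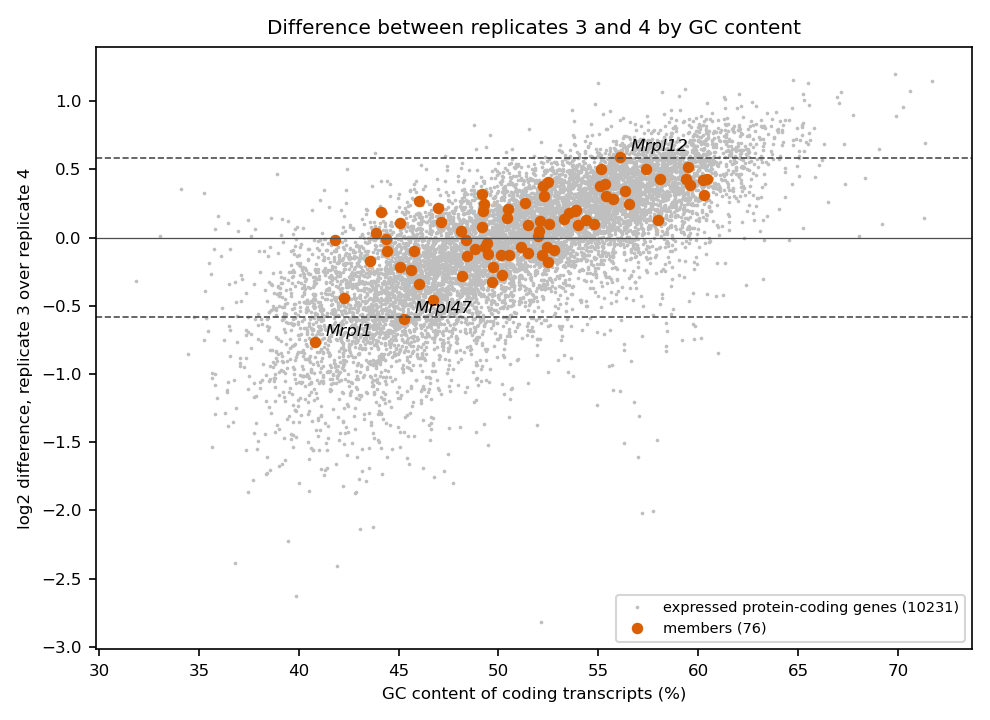
Log2 difference of FPKM + 0.1 between replicates 3 and 4 against the GC content of coding transcripts (%), for 76 members (orange) and 10231 expressed protein-coding genes (grey); dashed lines mark 1.5-fold. Both sets rise from left to right, and Mrpl12, Mrpl47 and Mrpl1 are the members past the lines.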

How the data were processed

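Expression was measured by RNA-seq in 3 replicates of 1 condition, labelled 1, 3 and 4. Per the study's methods and the submitters' processing notes, the authors prepared stranded mRNA libraries, trimmed 10 bases from each read, aligned to mm9 with STAR 2.3.0e, removed rRNA reads with RSeQC 2.3.7, counted with htseq-count 0.5.3p3 on Ensembl release 67, and deposited FPKM values after TMM scaling between libraries. The conversion from counts was not given in the sources used here.

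The members and lists were chosen with earlier results of these data known. Genes were placed with an mm9 annotation of Ensembl release 65 (374 deposited genes had no entry there). Named genes were the 5 highest and 5 lowest of each subunit, the 6 with the largest coefficient of variation, the Mrps18 family and fixed role lists, and neighbours and promoters were named after their values were seen. A pseudocount of 0.1 FPKM and a filter of 1 FPKM were used. GC content is the mean over coding transcripts, and repeated sequence is the share of their 50-base stretches found again in the genome. Joined exons outside coding transcripts were not searched for copies. No test was made, since there was 1 condition. Scripts (Python 3.11.15, numpy 2.4.6, pandas 2.3.3) were tested on simulated data. Alternatives were other filters, pseudocounts and averages, each replicate left out, GC-bin centring and, chosen after seeing the data, another gene length, the removal of members with copies and the same filter on the lists compared.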

Additional observations from a re-analysis of the deposited data

How the results depend on the processing

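Of 73 alternative values for 12 results, 53 stayed within the spread between replicates or within 1.5 times of a count. Some of these could not move. Where no member had passed 1.5-fold, a 2-fold cut, a pseudocount of 1 or a filter of 10 FPKM could only give 0 again. For the coefficient of variation the spread was the SD over pairs of replicates, which share samples. Of the 20 values that moved, 18 came from alternatives other than leaving out 1 replicate. Values with 1 replicate left out share the other replicates with the main value, so their staying near it says little. Leaving out 1 replicate at a time gave a median member level of 18.9 to 20.2 FPKM, 59 to 61 members at 10 FPKM or more, 21 members above their head-to-head neighbour each time, a small to large subunit ratio of 0.660 to 0.687, a mitochondrion-specific to bacterial ratio of 0.864 to 0.960 and a median coefficient of variation of 5.08 (without replicate 3) to 9.55%. It gave member ratios of 1.82 to 1.92 to expressed genes, 0.420 to 0.445 to cytosolic ribosomal protein genes and 0.293 to 0.30 to oxidative phosphorylation genes. With the median coding transcript as gene length, the median member had 30.8 FPKM, the small to large ratio was 0.961, the mitochondrion-specific to bacterial ratio 1.08, and the member ratios 0.220 to cytosolic and 0.307 to oxidative phosphorylation genes. With geometric means the first 2 of these ratios were 0.740 and 1.05. The filter set the ratio to protein-coding genes, which was 2.56 at 0.1 FPKM and 58.9 with none, since most genes are then at or near 0. At 0.1 FPKM the ratio was 0.331 to cytosolic and 0.279 to oxidative phosphorylation genes, and at 1 FPKM 0.329 and 0.273. Between replicates 3 and 4 the members past 1.5-fold numbered 0 with a pseudocount of 1, 1 with a filter of 10 FPKM and 0 past 2-fold. Between replicates 3 and 1 there was 1 with no filter (Mrpl23) and 1 after GC-bin centring (Mrps33). The shares of expressed genes past these folds were not computed under these other settings. No paired analysis was possible because there was 1 group. Depth limits little here, since the lowest member still had an estimated 75 reads.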
